A study of Mus musculus with 6 samples.

Results

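The AP-1 and BATF transcription factor genes described here are Jun, Junb, Jund, Fos, Fosb, Fosl1, Fosl2, Batf, Batf3 and Atf3, which are 10 of the 23420 genes in the files. They were picked by gene symbol, with the difference between CpG-stimulated and unstimulated B cells in these same samples already known. For these 10 genes that difference is therefore a description and carries no p value. The B cells were purified with beads from spleens of WT BALB/c mice aged 7 to 11 weeks, in portions of 10 M cells at 10 M/mL. In 3 samples the cells were stimulated for 4 hours with 10 μg/mL of CpG DNA, an oligonucleotide agonist of the endosomal DNA receptor TLR9, and in the other 3 they were left unstimulated. No gene was altered in either group. The labels name 3 mice but do not say which mouse gave which sample, so the spread between samples may be partly technical.

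AP-1 is a dimer of basic leucine zipper (bZIP) proteins that binds short palindromic sites in DNA. JUN proteins pair with each other or with FOS proteins, whereas FOS proteins need a JUN partner. BATF and BATF3 also pair with JUN proteins, lack the activation domain of FOS, and bind composite sites together with IRF4 or IRF8. Several of these genes are immediate early genes, whose mRNA is made rapidly after a stimulus and is short lived. In lymphocytes BATF is best known for its part in class switching and in T helper cell differentiation, and BATF3 for the development of cross-presenting dendritic cells.

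The deposited values are log2 CPM, the reads of a gene scaled to the size of its library, after quantile normalization. Voom adds 0.5 reads to each count, so -5.15, the most common value in the files, was read as a count of 0, which corresponds to a library of 17.8 M reads on genes. On this scale 10 reads lie at -0.76 and 3 reads, used as the detection floor, at -2.34. Quantile normalization hides the depth of each sample, and these limits cover counting error only. The difference between group means is given as log2FC with its standard error (SE) from limma. A gene was called at a log2FC over 1 in either direction with an FDR under 0.05, among the 11233 genes with over 10 reads' worth in at least 3 samples.

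The values also hold a shift per gene that both samples of a replicate number share, so that single genes without reads lie above or below -5.15. Off-zero low values were identical in 2683 to 2950 genes between samples of the same number, and in 485 to 581 genes between samples of different numbers. Differences between groups within a number are free of this shift, whereas differences between numbers are not. By the labels, the sex was female for numbers 1 and 2 and male for number 3. Xist, which is expressed from the inactive X chromosome, was at 11.85 and 11.65 log2 CPM in replicate 1, at 6.33 and 6.28 in replicate 2, and at 0.85 and 1.34 in replicate 3. The Y-linked Ddx3y was at -5.23 and -4.81 in replicate 1, at 2.27 and 2.15 in replicate 2, and at 7.48 and 8.10 in replicate 3. Replicate 2 thus lay between the labeled sexes, and with the shift by number in the values its sex could not be read from these genes. Erythroid markers also set replicate 2 apart, as Alas2, an enzyme of heme synthesis in red cell precursors, was at 8.07 and 8.17 log2 CPM there and between 4.70 and 5.48 elsewhere. All 6 B cell markers had a mean over 10 reads, and 0 of 5 T cell markers did.

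Of the 10 genes, 9 passed the filter on low values, 3 of them were called higher in CpG-stimulated cells (Batf, Jun and Fosl1) and 3 lower (Fos, Fosb and Fosl2). Among all tested genes 15.8% were called higher and 15.3% lower, and nothing is read from the counts of these genes against these shares, since they were chosen on the same comparison. Junb, Jund and Atf3 were tested and not called, and Batf3 was not tested. Every CpG-stimulated sample lay above every unstimulated sample in Batf, Jun and Fosl1, and below in Fos, Fosb, Fosl2 and Jund, where 39.1% and 38.6% of all tested genes were separated in these directions and 77.7% in either. With both samples of number 2 left out, an alternative added after the data were examined, the same 6 genes were called, with a log2FC of 4.94 for Batf, 3.49 for Jun and -2.12 for Fos. In the plot of the genes by sample, the direction differed within the FOS family, and the JUN family held a gene that was higher and others that were not called.

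**Figure D1:**
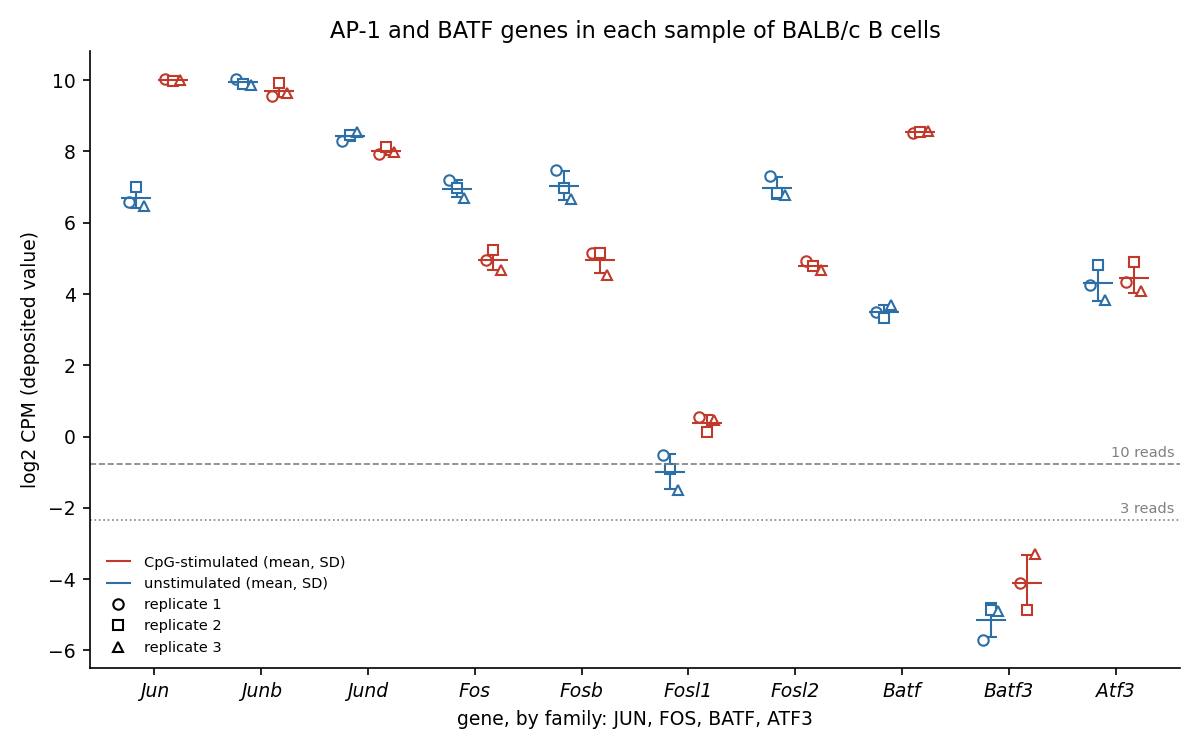
Log2 CPM of the 10 AP-1 and BATF genes (vertical axis) in each sample, with genes grouped by family on the horizontal axis, CpG-stimulated samples in red and unstimulated samples in blue. Symbols are replicates, bars are the mean and SD of 3 samples, and the lines mark 10 and 3 reads; Batf lies at 8.51 to 8.56 in the red group and at 3.34 to 3.70 in the blue group, and Batf3 lies under the lower line throughout.

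Jun encodes c-JUN, the strongest activator among the JUN proteins, and lies at chr4:95049034-95052222 of GRCm38. Its values were 10.02, 9.99 and 10.02 log2 CPM in CpG-stimulated replicates 1 to 3 and 6.59, 7.00 and 6.46 in unstimulated replicates. The groups were 2.98 apart at their closest. The stimulated samples were nearly level (SD 0.02, n = 3), while the unstimulated samples spread more widely (SD 0.28, n = 3). Both spreads are between replicate numbers and so are not free of the shift by number. The log2FC was 3.32 (SE 0.12), or 10.0-fold, and by replicate number the differences were 3.43, 2.98 and 3.56. Jun shares 232 exon bases with the antisense gene Junos, which was not analysed here. The paper describes libraries made with a stranded mRNA kit, but whether reads were counted by strand is not given in the sources used here.

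Junb encodes a JUN protein that can restrain c-JUN and is also a dimer partner of BATF, and lies at chr8:84974484-84978718. It was at 9.56, 9.91 and 9.64 log2 CPM in CpG-stimulated and at 10.04, 9.90 and 9.87 in unstimulated replicates. The groups overlapped, with stimulated replicate 2 above 2 of the unstimulated samples. The log2FC was -0.23 (SE 0.09), and by number the differences were -0.48, 0.01 and -0.23, so that replicate 2 showed almost none. Its exons share 173 bases with Prdx2 on the opposite strand, a peroxiredoxin gene with a log2FC of 0.02 (SE 0.16, FDR = 0.908).

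Jund encodes a JUN protein known for steady expression in resting cells, and lies at chr8:70698949-70700616. It was at 7.94, 8.13 and 7.97 log2 CPM in CpG-stimulated and at 8.30, 8.45 and 8.55 in unstimulated replicates. The groups did not overlap, but their nearest samples were only 0.17 apart. The log2FC was -0.42 (SE 0.08), with differences by number of -0.36, -0.32 and -0.57. Jund shares 877 exon bases with the antisense gene Gm11175, which was not analysed here.

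The RefSeq promoters of Jun and Jund, 250 bases before to 50 bases after the start, hold a match to TGANNTCA, a pattern that includes the CRE, the site of JUN and ATF dimers. It is shown for both because their differences were unlike. The pattern reads the same on both strands, and capitals mark the match. The start site is 1 and the base before it -1. In Jun the matches lie at -45 to -38 and at 3 to 10, and in Jund, for which RefSeq places the start upstream of the gene model used above, at -61 to -54. All sequences are from RefSeq on GRCm38.p6, read 5′ to 3′ on the strand of the gene, which is minus for Jun and plus for Jund.
Jun, chr4:95052249-95052278: aagcctcggggTGACATCAtgggctatttt
Jun, chr4:95052202-95052231: cagataagtgtTGAGCTCAggctggataag
Jund, chr8:70697667-70697696: cgttgaggcagTGAAATCAccctcagtctt
This motif was found in 14.1% of all 32851 promoters of this length, and in 2 of the 9 promoters matched by symbol to the genes described here. No promoter was matched to Fosl1. The shorter AP-1 site TGANTCA was found in 7.81% of all promoters and in 0 of these 9. A match describes letters and not binding, and no match refers to this window only.

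Fos encodes c-FOS, the classical immediate early partner of JUN, and lies at chr12:85473890-85477273. It was at 4.96, 5.25 and 4.68 log2 CPM in CpG-stimulated and at 7.18, 6.99 and 6.70 in unstimulated replicates. The lowest unstimulated sample was 1.45 above the highest stimulated sample. The log2FC was -1.99 (SE 0.15), which is 3.98-fold lower in stimulated cells. The differences by number were -2.23, -1.74 and -2.02.

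Fosb encodes another immediate early FOS protein, and lies at chr7:19302696-19310051. It was at 5.15, 5.14 and 4.54 log2 CPM in CpG-stimulated and at 7.49, 6.98 and 6.66 in unstimulated replicates. The groups were separate by 1.5, and replicate 3 was lowest in both. The log2FC was -2.10 (SE 0.21), or 4.28-fold lower.

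Fosl2 encodes FRA-2, a FOS relative without the strong activation domain of c-FOS, and lies at chr5:32135801-32157842. It was at 4.92, 4.79 and 4.66 log2 CPM in CpG-stimulated and at 7.32, 6.82 and 6.77 in unstimulated replicates. The gap between groups, 1.86, was the widest of the 3 FOS family genes that were lower. The log2FC was -2.18 (SE 0.13), or 4.54-fold lower. The log2FC values of Fos, Fosb and Fosl2 lay between -2.18 and -1.99, a range smaller than the SE of Fosb.

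Fosl1 encodes FRA-1, the other FOS relative of this kind, and lies at chr19:5447547-5455946. It was far lower than the rest of its family, at 0.55, 0.12 and 0.46 log2 CPM in CpG-stimulated and at -0.51, -0.92 and -1.51 in unstimulated replicates. This is 18.8 to 25.5 reads' worth against 5.75 to 12. The groups did not overlap, and the log2FC was 1.36 (SE 0.36). Only 4 of the 6 samples were over 10 reads, including all 3 stimulated samples, so that the gene passed the filter mainly through the group in which it was higher. It was no longer called on log2(CPM + 1), where its log2FC was 0.60, or in a test against a log2FC of 1. Fosl1 shares 1163 exon bases with Ccdc85b on the opposite strand, a gene that was itself higher after CpG (log2FC 1.15, SE 0.10, FDR = 4.12e-06 from limma), and reads of these genes cannot be told apart without strand.

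The promoters of Fos, Fosb and Fosl2, the 3 genes of the family that were lower, each hold a match to the NF-κB consensus, which was found in 4.51% of all promoters. NF-κB is a main transcription factor downstream of TLR9. They are shown with the match in capitals, which lies at -214 to -205 in Fos, at -188 to -179 in Fosb and at -182 to -173 in Fosl2, and on the strand opposite to the gene in Fos and Fosb. In Fosl2 a match on the opposite strand overlaps this one by all but 1 base. RefSeq places the start of Fosl2 inside the gene model used above.
Fos, chr12:85473666-85473695 (plus strand): ggaaggtctaGGAGACCCCCtaagatccca
Fosb, chr7:19310214-19310243 (minus strand): acgcagccttGGGGACCCCCgagaccccca
Fosl2, chr5:32136280-32136309 (plus strand): agatcggggaGGGAGTCCCCcagagctgcc
Of the other 6 promoters of these genes, 0 held this match. Fosl1, the FOS family gene that was higher, had no promoter in this set and could not be searched. A match describes letters and not binding, and its part in the differences was not tested. This consensus was 1 of several patterns searched, and the genes were grouped by the comparison that chose them. The match they share is therefore a description only. TATAAA, also searched, was found in 13.6% of all promoters and in those of Junb and Fos. A CArG box, the site of SRF, was found in 1.63% of all promoters and in 0 of the 9 within this window.

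Batf lies at chr12:85686669-85709087. It was at 8.51, 8.55 and 8.56 log2 CPM in CpG-stimulated and at 3.49, 3.34 and 3.70 in unstimulated replicates, which corresponds to 6476 to 6732 reads against 179 to 230. The nearest samples of the groups were 4.81 apart, the widest gap of the 10 genes. The log2FC was 5.03 (SE 0.09), or 32.8-fold, and the differences by number were 5.02, 5.21 and 4.87. A log2FC of 5 or more with an FDR under 0.05 was found in 14 of the 11233 tested genes (0.125%), and of 3 or more, which Jun also reached, in 105 (0.935%).

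Batf3 lies at chr1:191097847-191108945. It was at -4.12, -4.87 and -3.30 log2 CPM in CpG-stimulated and at -5.70, -4.87 and -4.88 in unstimulated replicates, at most 1.31 reads' worth. All 6 samples were under the floor of 3 reads, so that no fold is given and a difference was not detectable at this depth. Of 6 markers of conventional dendritic cells, the cells for which Batf3 is best known, 2 had a mean over 10 reads (Flt3 and Zbtb46). The summed level of the list was 6.49 to 6.72 log2 CPM in CpG-stimulated and 4.93 to 5.24 in unstimulated samples, and rests mainly on these 2 genes. In Xcr1, Clec9a, Itgax and Cd209a the groups overlapped. Of the 2 markers that define the cross-presenting subset, Clec9a had a mean of -4.24 and Xcr1 of -1.93, both under 10 reads. Clec9a and Cd209a were under the floor of 3 reads in every sample.

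Atf3 encodes a stress-induced bZIP protein that pairs with JUN proteins and often represses, and lies at chr1:191170296-191218039. It was at 4.35, 4.90 and 4.07 log2 CPM in CpG-stimulated and at 4.25, 4.82 and 3.84 in unstimulated replicates. The groups overlapped widely, and the log2FC was 0.14 (SE 0.25). With the replicate number as a block the SE was 0.084. The difference between numbers was larger than the difference between groups, as replicate 2 was highest and replicate 3 lowest in both. The same order of highest and lowest values can come from the shift by number, and replicate 2 is also where Alas2 was highest. The part of either in the values of Atf3 was not tested. Within a number, stimulated samples were higher by 0.10, 0.08 and 0.23. Without both samples of number 2 the log2FC was 0.16.

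TGACGT, a shorter site of the CRE type, was found in the promoters of Batf, Fos and Atf3, and in 7.51% of all promoters. It is shown as the motif shared by genes that were higher, lower and not called. It lies at -98 to -93 in Batf, at -66 to -61 in Fos, and at -8 to -3 on the opposite strand in Atf3, with capitals marking it. RefSeq places the start of Atf3 well inside the gene model used above. It would overlap TGANNTCA in a full CRE, which 0 of these 3 promoters hold.
Batf, chr12:85686610-85686639 (plus strand): tttctaacttgtTGACGTttccgcccatgt
Fos, chr12:85473812-85473841 (plus strand): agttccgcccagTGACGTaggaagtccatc
Atf3, chr1:191183324-191183353 (minus strand): attaatagcattACGTCAgcctgggattgg

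Levels of different genes were compared per length, as CPM per kb of annotated exon. The summed level of the 10 genes was 1092 to 1210 CPM per kb in CpG-stimulated and 746 to 800 in unstimulated samples. The ranges of the JUN, FOS and BATF families did not overlap between the groups, whereas those of Atf3 did (0.698% to 1.15% against 0.893% to 1.70%). The JUN family held 73.3% to 74.7% of the sum in CpG-stimulated and 84.5% to 88.3% in unstimulated samples. Batf held 22.1% to 24.1% against 0.932% to 1.24%, and the FOS family 1.60% to 2.08% against 9.61% to 13.4%. Within the JUN family, the share of Jun was 26.3% to 29.8% against 3.70% to 5.21%, and that of Junb 30.0% to 34.5% against 53.8% to 57.1%. Jund held 13.5% to 13.8% against 23.6% to 30.1%, although its own level differed little. These shares follow from the differences that chose the genes and are not further evidence of them.

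**Figure D2:**
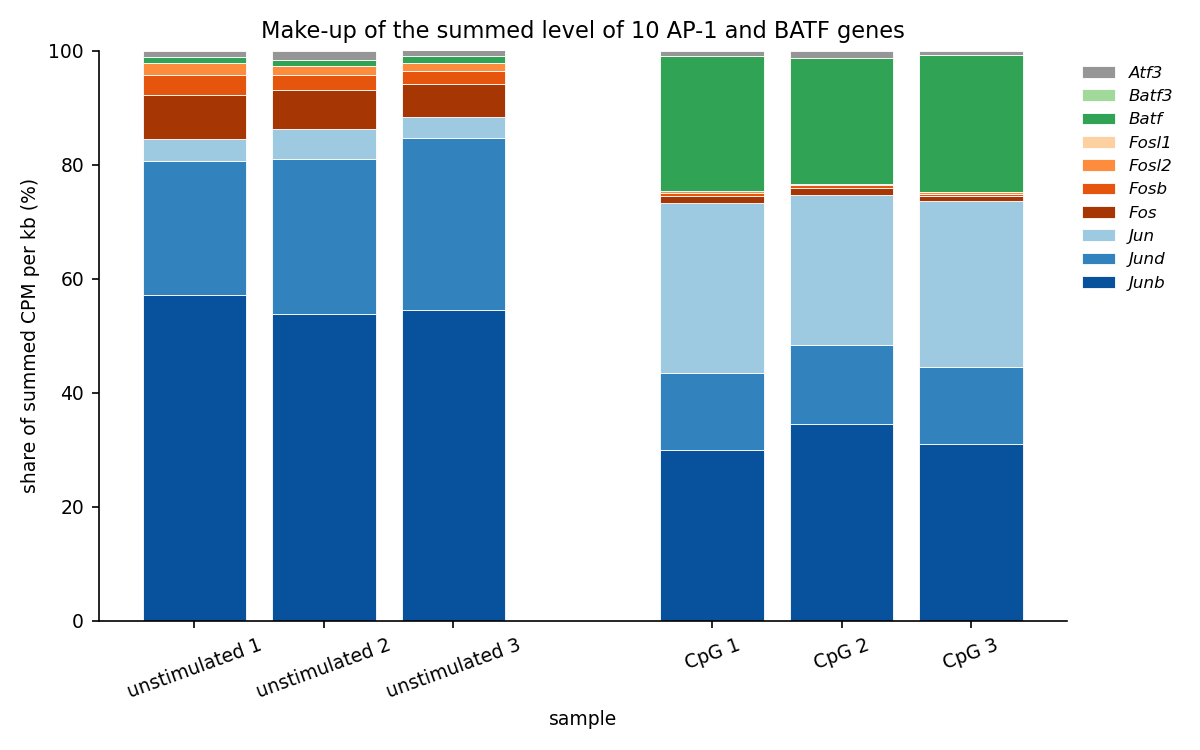
Share of each gene (vertical axis, percent) in the summed CPM per kb of the 10 AP-1 and BATF genes in each sample (horizontal axis), with the JUN family in blue, the FOS family in orange and brown, Batf in green and Atf3 in grey. Batf takes 22.1% to 24.1% of the bars of CpG-stimulated samples, and the FOS family 9.61% to 13.4% of the bars of unstimulated samples.

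Jun and Fos, which can form a dimer, changed places by level. Jun was at 0.489, 0.747 and 0.626 of the CPM per kb of Fos in unstimulated replicates, and at 24.6, 19.7 and 29.9 times that of Fos in CpG-stimulated replicates. Batf was at 0.129, 0.134 and 0.210 of the level of Fos in unstimulated and at 19.6, 16.5 and 24.8 times it in stimulated replicates. Summed over families, JUN genes were 35.2 to 45.9 times the FOS genes in stimulated and 6.29 to 9.18 times in unstimulated samples. Junb was 10.3 to 15.1 times Jun in unstimulated and 1.01 to 1.31 times Jun in stimulated samples. mRNA ratios are not ratios of proteins or dimers, neither of which was measured.

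In CpG-stimulated cells the order per length was Junb (mean 8.50 log2 CPM per kb), Jun (8.33), Batf (8.05), Jund (7.27), Fos (3.73), Atf3 (3.33), Fosb (2.30), Fosl2 (1.51), Fosl1 (-0.65) and Batf3 (-4.77). Only Fos and Atf3 overlapped as neighbours, between 3.44 and 4.01 and between 2.96 and 3.80. In unstimulated cells it was Junb (8.73), Jund (7.69), Fos (5.72), Jun (5.01), Fosb (4.40), Fosl2 (3.70), Atf3 (3.20), Batf (3.02), Fosl1 (-2.0) and Batf3 (-5.83). There the ranges of Jun and Fosb, Fosb and Fosl2, Fosl2 and Atf3, and Atf3 and Batf overlapped. Junb was at rank 1 in both groups, and Batf at rank 3 in stimulated and rank 8 in unstimulated cells. With the length of the longest coding transcript, Batf (8.61) was above Jun (8.33) in stimulated cells, and in unstimulated cells Fosb (5.12) was above Jun (5.01) and Batf (3.57) above Atf3 (3.32), so the order of these neighbours depends on the length used.

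The genes most like Batf were ranked by the root mean square difference of values centred on each gene's mean, over the 6 samples. Of 11232 other tested genes the nearest were Shc4 (0.29), an adaptor of receptor tyrosine kinases, Fam89a (0.30), Fam129a (0.38), Ebi3 (0.38), a subunit of IL-27 and IL-35, and Mir155 (0.43), a microRNA gene induced in activated B cells. Shc4 was under the floor of 3 reads in all unstimulated samples, and Mir155 was under 10 reads there, so that both passed the filter through the stimulated group and the size of their difference, and with it their rank, is uncertain. On log2(CPM + 1) their log2FC was 2.41 and 2.65. The log2FC of the other 3 lay between 4.64 (Ebi3) and 5.46 (Fam129a). Jun was at rank 59 (0.90), as its difference was smaller. The genes at ranks 2 and 3 from Fosb were Fos (0.16) and Fosl2 (0.17), a likeness that rests mainly on the difference between groups that chose them. Fos, Fosb, Fosl2 and Atf3 were lowest in replicate 3 in both groups, as were 10.6% of tested genes. With 6 samples in 2 groups and a shift by number, this likeness describes these libraries only.

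Batf and Fos are neighbours on chromosome 12, with starts 213 kb apart, and differed in opposite directions. Within 500 kb of the Batf start lie 14 protein-coding genes, 13 of which were tested and 5 called. Batf and Fos, chosen on this comparison, are among them, and without them 3 of 11 were called, where 31.2% of all tested genes were called in either direction. Jdp2, which encodes a bZIP repressor of AP-1 and lies between them, at -87.6 kb from Batf, rose from 0.53, 0.07 and 0.38 log2 CPM in unstimulated replicates to 1.85, 1.64 and 1.5 in stimulated replicates (log2FC 1.34, SE 0.22, FDR = 0.000325 from limma). On log2(CPM + 1) its log2FC was 0.89, under the threshold. Farther out, Erg28 (listed as 0610007P14Rik), a gene of sterol synthesis, rose by a log2FC of 1.03 (FDR = 2.49e-06), and Tgfb3, which encodes a TGF-β cytokine, fell with a log2FC of -4.23 (SE 0.41, FDR = 7.01e-06). Stimulated replicates 1 and 3 were under 10 reads for Tgfb3 (-0.78 and -1.01 log2 CPM), so the size of its difference is uncertain. The other 8 tested genes were not called, with log2FC values from -0.83 (Ttll5) to 0.77 (Zc2hc1c). By the gene models used here, Batf3 and Atf3 are also near each other, with starts 120 kb apart on chromosome 1. The RefSeq start of Atf3 lies inside its gene model, nearer to Batf3. Atf3 was not called, and Batf3 was not tested.

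**Figure D3:**
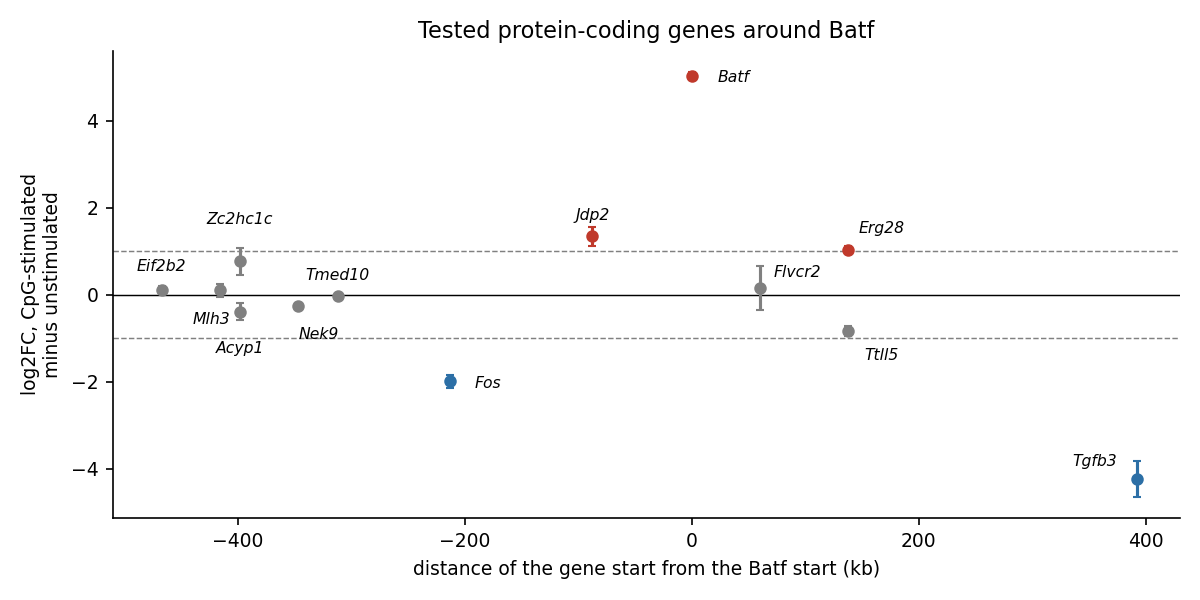
Log2FC with SE (vertical axis, CpG-stimulated minus unstimulated) of the 13 tested protein-coding genes within 500 kb of the Batf start, by distance in kb of their starts from that of Batf (horizontal axis). Genes called higher are red, lower blue and others grey, and dashed lines mark a log2FC of 1 in either direction; Batf is at 5.03 and Fos, 213 kb before it, at -1.99.

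Genes around AP-1 and BATF were described in 6 lists, of 135 genes in all. Among all tested genes the median log2FC was 0.003. The lists were written with earlier results of these data known, so that their counts are no independent evidence.

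Of 36 other bZIP factors, 32 were tested, 4 rose and 5 fell, with a median log2FC of -0.02. These are 12.5% and 15.6% of the factors tested, near the 15.8% and 15.3% of all tested genes. Crem, which encodes modulators of CREB, fell by 2.50 on the log2 scale (SE 0.11, FDR = 5.35e-08), from 9.25 to 9.50 log2 CPM in unstimulated to 6.68 to 7.16 in stimulated samples. Bach2, a repressor that competes with AP-1 at some sites and delays plasma cell differentiation, fell by 1.37 (SE 0.08, FDR = 1.95e-07). Maf fell by 1.79 (FDR = 0.000654) and Creb3 by 1.24 (FDR = 1.08e-05). Cebpd rose with the largest log2FC of the list, 4.57, but was under 10 reads in every unstimulated sample. It passed the filter through the stimulated group, so the size of its difference is uncertain, and it was named after its values were seen. With 10 reads' worth required in every sample, 3 factors rose and 5 fell. In a test against a log2FC of 1, only 1 of these factors was higher and 2 were lower, and Jdp2, Maf and Creb3 were not called.

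The 2 IRF partners of BATF, Irf4 and Irf8, were at 9.09 log2 CPM or more in every sample. Irf8 was at 10.88, 10.76 and 10.86 log2 CPM in CpG-stimulated and at 9.24, 9.09 and 9.23 in unstimulated replicates, and rose with a log2FC of 1.65 (SE 0.07, FDR = 4.05e-08). Irf4 was at 11.29, 11.09 and 11.12 against 10.29, 10.17 and 10.15. Its log2FC of 0.97 (SE 0.08, FDR = 1.79e-06) passed the FDR and missed the threshold on the log2FC. Irf4 was called when CpG-stimulated replicate 2 (log2FC 1.0) or unstimulated replicate 1 (1.01) was left out. Levels of both and of Batf were thus higher in every stimulated than in every unstimulated sample. The same held for 39.1% of all tested genes, and Batf was chosen on this comparison.

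Among 38 tested genes of the MAP kinase cascade, which relays receptor signals to JUN and FOS, 2 rose and 8 fell (median -0.15). These are 5.26% and 21.1% of the genes tested, against 15.8% and 15.3% of all tested genes. Map2k6, among those that fell, was under 10 reads in every stimulated sample and passed the filter through the unstimulated group. With 10 reads' worth required in every sample, 2 rose and 7 fell. Map3k20 (listed as B230120H23Rik), which encodes the stress kinase ZAK, rose with a log2FC of 2.17 (SE 0.19, FDR = 2.62e-06), and Rps6ka1, which encodes the ERK-activated kinase RSK1, with 1.65 (SE 0.11, FDR = 5.88e-07). The p38 genes Mapk14 and Mapk11 fell by 1.59 (FDR = 3.88e-07) and 1.92 (FDR = 0.000158). Map3k1, an upstream kinase of the JNK pathway, fell by 1.54 (SE 0.07, FDR = 4.23e-08). Mapk8, which encodes JNK1, had a log2FC of 0.52, and Mapk9, which encodes JNK2, had -0.48. Neither was called, and both were named after their values were seen. mRNA of a kinase does not show its activity.

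Of 10 genes for SRF, its ternary complex partners and MEF2 factors, which act at the promoters of Fos and Jun, 0 rose and 3 fell (median -0.59), and by the FDR of limma alone 1 was higher and 7 were lower. At an unadjusted p under 0.05, 2 were higher and 7 lower. The genes called are 0% and 30.0% of this list, against 15.8% and 15.3% of all tested genes. Mef2c fell by 2.24 (SE 0.07, FDR = 1.50e-08), Mef2d by 1.23 (SE 0.06, FDR = 9.68e-08) and Elk4 by 1.18 (SE 0.06, FDR = 1.14e-07). Srf itself had a log2FC of 0.53 and was not called. Of 14 genes for the turnover and activity of JUN and FOS proteins, 3 rose and 1 fell (median 0.22). These are 21.4% and 7.14% of the list, against 15.8% and 15.3% of all tested genes. Trib3 rose with a log2FC of 2.46 (SE 0.15) and Trib1 with 1.13 (SE 0.11), while Trib2 fell by 2.52 (SE 0.22), all Tribbles pseudokinases that act as adaptors of the ubiquitin ligase COP1. Cops5, the JUN-binding subunit of the COP9 signalosome, rose with a log2FC of 1.07 (SE 0.06).

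**Figure D4:**
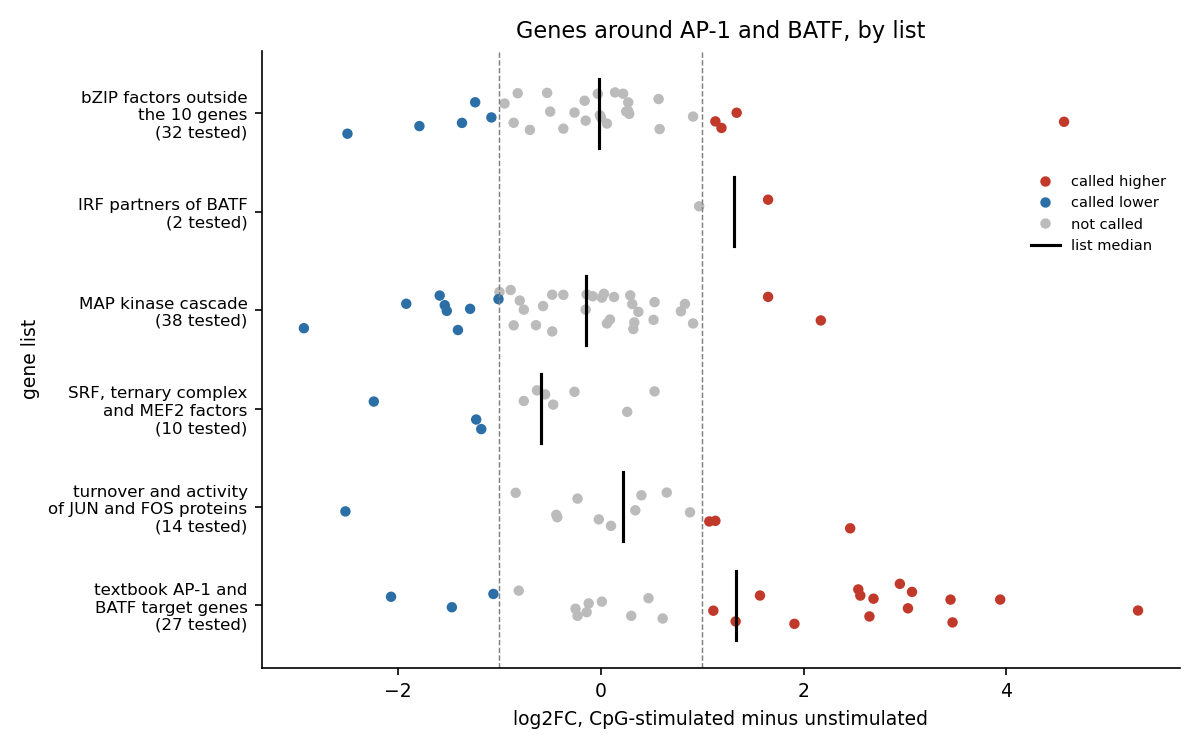
Log2FC (horizontal axis, CpG-stimulated minus unstimulated) of every tested gene in the 6 lists (vertical axis), called higher in red, called lower in blue and not called in grey, with the list median as a black bar and dashed lines at a log2FC of 1 in either direction. The median is 1.33 for the textbook targets and between -0.59 and 0.22 for the lists other than the targets and the 2 IRF partners.

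Of 33 textbook targets of AP-1 and BATF, 27 were tested, 15 rose and 3 fell, with a median log2FC of 1.33. These are 55.6% and 11.1% of the targets tested, against 15.8% and 15.3% of all tested genes. Il2, among those that rose (log2FC 3.94), was under the floor of 3 reads in every unstimulated sample. It passed the filter through the stimulated group, so the size of its difference is uncertain, and it was named after its values were seen. With 10 reads' worth required in every sample, 13 targets rose and 3 fell. Those that fell were Plaur (log2FC -2.07), Vim (-1.47) and Plau (-1.06), named after their values were seen. Il6 rose with a log2FC of 5.30 (SE 0.62, FDR = 2.60e-05), from -2.56, 0.12 and -0.40 to 3.69, 5.23 and 4.15 log2 CPM, and its size is uncertain because unstimulated replicate 1 was under the floor of 3 reads. Il2ra, the alpha chain of the IL-2 receptor, rose with 3.47 (SE 0.14, FDR = 2.90e-08). The chemokine genes Ccl3 and Ccl4 rose with 3.45 (SE 0.13, FDR = 2.62e-08) and 3.07 (SE 0.10, FDR = 1.40e-08), and Tnf with 3.03 (SE 0.19, FDR = 3.02e-07). Prdm1, the plasma cell regulator, had a log2FC of -0.12 (SE 0.17, FDR = 0.548) and was named after its values were seen. Many of these targets are also made by myeloid cells. Of 6 myeloid markers 3 had a mean over 10 reads and 0 were under the floor of 3 reads in every sample, with a summed level of 3.29 to 3.94 log2 CPM in CpG-stimulated and 2.75 to 3.70 in unstimulated samples, and their part in these differences was not tested. The summed level of the 6 B cell markers was 11.14 to 11.35 log2 CPM in stimulated and 11.76 to 11.99 in unstimulated samples. In bulk samples fewer cells of a type and less RNA per cell cannot be told apart.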

How the data were processed

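Bead-purified B cells were measured by mRNA sequencing in 6 samples, 3 per group by their labels. According to the paper and the processing notes, the authors trimmed reads with Trim Galore 0.6.5, aligned them to mm10 with STAR 2.6.1a, counted them with featureCounts (Subread 2.0.1), quantile normalized the counts and applied voom in limma. The deposited values are log2 CPM, not counts, and were tested as they are.

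Genes with over 10 reads' worth in at least 3 samples were fitted with limma 3.58.1 in R 4.3.3 (lmFit, then eBayes with a trend), with Benjamini-Hochberg adjustment over 11233 genes (FDR). The procedure was tested on simulated data. Exon lengths and positions are from GENCODE M21 (GRCm38), and 4 symbols were matched by RefSeq synonyms. The genes described and all lists were chosen with earlier results of these data known. Named were the 10 genes, both IRF partners, from each other list up to 5 called genes with the largest log2FC, no overlap and a mean over 0 log2 CPM, and the 5 genes nearest to Batf; genes around Batf were taken by position. Alternatives changed the filter, scale, centring, variance trend, block, threshold, exon length and samples.

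Replicate numbers come from the sample titles. Deviations from the group means correlated at 0.435, 0.224 and 0.300 between samples of the same number and at -0.281 to 0.0279 between others. By this measure the numbers pair the samples, and a fit with the number as a block was run. The shift by number can give the same correlations. Unless stated otherwise, each SE is from the fit without this block.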

Additional observations from a re-analysis of the deposited data

How the results depend on the processing

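Batf, Jun, Fos, Fosb and Fosl2 were called in the same direction under all 14 alternative fits, and Fosl1 under 11 of them. Fosl1 was not called on log2(CPM + 1), against a log2FC of 1, or with 10 reads required in every sample, where it was not tested; the cause was not tested. With the replicate number as a block, 1784 genes were called higher and 1728 lower, and no call of a named gene or list count changed. Against a log2FC of 1 (treat), 914 genes were higher and 968 lower, against 1778 and 1723 with the threshold on the estimate; 1 and 2 other bZIP factors and 1 turnover gene (higher) passed. At any log2FC with an FDR under 0.05, 4227 genes were higher and 4123 lower; 5 of the 10 genes described were lower, and the counts of higher and lower genes were 11 and 11 for other bZIP factors, 12 and 18 for the MAP kinase cascade, 1 and 7 for SRF and MEF2 factors, and 7 and 4 for turnover, with 2 IRF partners higher. A looser threshold on size gives these counts by construction. Leaving out each sample in turn gave 1650 to 1851 genes higher, 1667 to 1807 lower and 1 to 2 IRF partners higher. The shares per length without each sample were 22.9% to 23.9% for Batf and Batf3 in stimulated and 0.967% to 1.12% in unstimulated samples, 1.84% to 2.08% and 10.4% to 12.3% for the FOS family, and 73.4% to 74.1% and 85.3% to 87.2% for the JUN family. With the length of the longest coding transcript the share of Batf and Batf3 was 28.5% in stimulated and 1.31% in unstimulated samples, and that of the JUN family 68.6% in stimulated samples. Depth limits Batf3 and Fosl1, which lay near or under the floor.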
